A study of Homo sapiens with 15 samples.

Results

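Human chromosome 19 carries dense stretches of housekeeping genes and, between them, long tandem clusters of zinc-finger genes. Binding of MYC and of WDR5 was compared between 7 such cluster blocks and the rest of the chromosome. The members were all peaks of the 3 deposited lists on chromosome 19, 1440 of the 20388 peaks of the series. A peak was placed in a block when its start lay in 8.9 to 9.9, 11.7 to 12.6, 19.8 to 24.5, 36.5 to 38.3, 44.2 to 45, 52.3 to 53.9 or 56.3 to 59.1 Mb (hg19), numbered here 1 to 7 in this order. That placed 196 peaks in the blocks and 1244 in the rest.

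Chromatin immunoprecipitation followed by sequencing (ChIP-seq) was made in HEK293, a human embryonic kidney cell line. Cells transduced with a retrovirus expressed FLAG-tagged WBM-MYC (a MYC deficient in binding WDR5), FLAG-tagged WT-MYC, or no exogenous MYC (empty vector), and all were precipitated with an anti-FLAG antibody. WDR5, and rabbit IgG as its control, were precipitated from HEK293 cells without a retrovirus, so MYC and WDR5 were mapped in different cell pools. The MYC mapped was expressed from the retrovirus on top of the cells' own. Each of the 5 groups had 3 biological replicates (15 libraries), and 1 peak list each for WBM-MYC, WT-MYC and WDR5 was analysed. No peak list of the vector or IgG group and no read depth entered the analysis.

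MYC is a transcription factor that binds E-box sequences with its partner MAX, largely at promoters that are already active. WDR5 is a WD40-repeat scaffold protein of the MLL/SET histone methyltransferase complexes that place methyl groups on histone H3 lysine 4 at such promoters, and it also contacts MYC directly. Most zinc-finger genes in such clusters encode KRAB zinc-finger proteins, repressors that recruit the corepressor KAP1 (TRIM28), many of them at transposable elements. These genes arose by tandem duplication, and their bodies often carry the heterochromatin mark H3K9me3. In a GRCh38 gene table used here for names alone, 255 of the 1451 protein-coding genes of the chromosome have a ZNF or ZFP symbol, with up to 27 of them as direct neighbours. That table and the peaks are on different builds, so the gene content of each block was not checked and no peak was given a gene.

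Each list is 1 call per group, with no score and no replicate values. Every interval and test below therefore treats peaks as units, covers counting error over peaks alone and has no replicate check. Shares have exact (Clopper-Pearson) 95% intervals and densities have exact Poisson 95% intervals. Peaks were called shared from an overlap of 1 bp. Fisher's exact tests are two-sided and were adjusted over all 11 tests by the Benjamini-Hochberg method, with 0.05 as the threshold. Neighbouring peaks are not independent, so these p-values can be too small.

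The chromosome held 54 WBM-MYC peaks, 7.83% of that list (5.93 to 10.1%). It held 199 WT-MYC peaks, 7.87% of the list (6.85 to 8.99%), and 1187 WDR5 peaks, 6.91% (6.54 to 7.30%). By peak number it came 6th, 3rd and 2nd of 23 chromosomes in the WBM-MYC, WT-MYC and WDR5 lists. Overlap of WT-MYC and WDR5 on the chromosome as a whole lay close to that elsewhere. On chromosome 19, 15.3% of WDR5 peaks had a WT-MYC peak (13.3 to 17.5%), against 13.4% on the other chromosomes (12.9 to 14.0%). The WDR5 share of WT-MYC peaks was 84.4% on chromosome 19 (78.6 to 89.2%) and 82.8% elsewhere (81.2 to 84.3%).

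The first question was whether MYC and WDR5 divided in the same way between the zinc-finger blocks and the rest. WT-MYC peaks were rarer in the blocks than WDR5 peaks were. Of the 199 WT-MYC peaks 13 lay in the blocks (6.53%, 3.52 to 10.9%), against 180 of the 1187 WDR5 peaks (15.2%, 13.2 to 17.3%). The odds ratio was 0.391 (0.200 to 0.705; Fisher's exact test, p = 0.000810, adjusted p = 0.00891). This was the single comparison of the 11 past the threshold. Blocks and comparisons were chosen with earlier results of these data known, so this p-value is not from a test fixed beforehand. Most WT-MYC peaks lie on WDR5 peaks, so the lists compared are in part the same sites. The call was lost when the rest was limited to the 1 Mb on each side of the blocks (odds ratio 0.445, adjusted p = 0.124), when only the leading 50% of each list was used (0.443, adjusted p = 0.251), and against all other chromosomes (0.496, adjusted p = 0.130; Fisher's exact test in each case). The last of these alternatives was not planned and was chosen with these results known.

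For WBM-MYC, 3 of its 54 peaks lay in the blocks (5.56%, 1.16 to 15.4%). The odds ratio against WDR5 was 0.329 (0.0650 to 1.04; Fisher's exact test, adjusted p = 0.112), and that against WT-MYC was 0.842 (0.148 to 3.23, adjusted p = 1). The interval of the last leaves room for a large difference between the MYC forms in either direction.

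WDR5 and MYC peaks were both sparser in the blocks. The blocks together span 13.6 Mb and held 13.2 WDR5 peaks per Mb (11.4 to 15.3), against 22.1 per Mb over the other 45.5 Mb (20.8 to 23.5). These 45.5 Mb include the centromere, where no list had peaks. WT-MYC density was 0.956 peaks per Mb in the blocks (0.509 to 1.63) and 4.09 in the rest (3.52 to 4.72). WBM-MYC density was 0.221 per Mb in the blocks (0.0455 to 0.645) and 1.12 in the rest (0.835 to 1.47). WDR5 density in the blocks was thus 0.598 times, and WT-MYC density 0.234 times, that in the rest. Without block 3, which makes up 4.7 Mb of the blocks, these ratios were 0.848 for WDR5 and 0.357 for WT-MYC, and without block 7 they were 0.469 and 0.113. For every 100 WDR5 peaks there were 7.22 WT-MYC peaks in the blocks and 18.5 in the rest, and 1.67 WBM-MYC peaks in the blocks and 5.06 in the rest.

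MYC peaks were found in 3 of the 7 blocks, and differences between blocks were not tested. Blocks 2, 3, 5 and 6 held no MYC peak of either form, although WDR5 was called there at 17, 13, 18 and 16 sites. The upper 95% limits of the share of WDR5 peaks with WT-MYC in these blocks were 19.5, 24.7, 18.5 and 20.6%, above the 11.1% found in block 4 and the 14.7% in block 7. These 64 WDR5 peaks would give 10.6 with WT-MYC at the share found in the rest of the chromosome. They were grouped for having no MYC, so their sum carries no test. Block 1 held 12 WDR5 peaks with 1 WBM-MYC and 1 WT-MYC peak. Block 4 held 36 WDR5 peaks and 4 WT-MYC peaks, and block 7, at the end of the long arm, 68 WDR5, 8 WT-MYC and 2 WBM-MYC peaks.

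WDR5 density is given by block as a description, without a test. Block 5, with no MYC peak, had 22.5 WDR5 peaks per Mb (13.3 to 35.6), beside 20 per Mb in block 4 (14.0 to 27.7) and 24.3 in block 7 (18.9 to 30.8), which both had MYC. These intervals overlap. The upper limit of 18.5% for WDR5 peaks with WT-MYC in block 5 lay above the shares in blocks 4 and 7, so its lack of MYC is not set apart from them. Block 3, next to the centromere, was the poorest in WDR5 with 2.77 peaks per Mb (1.47 to 4.73).

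**Figure D1:**
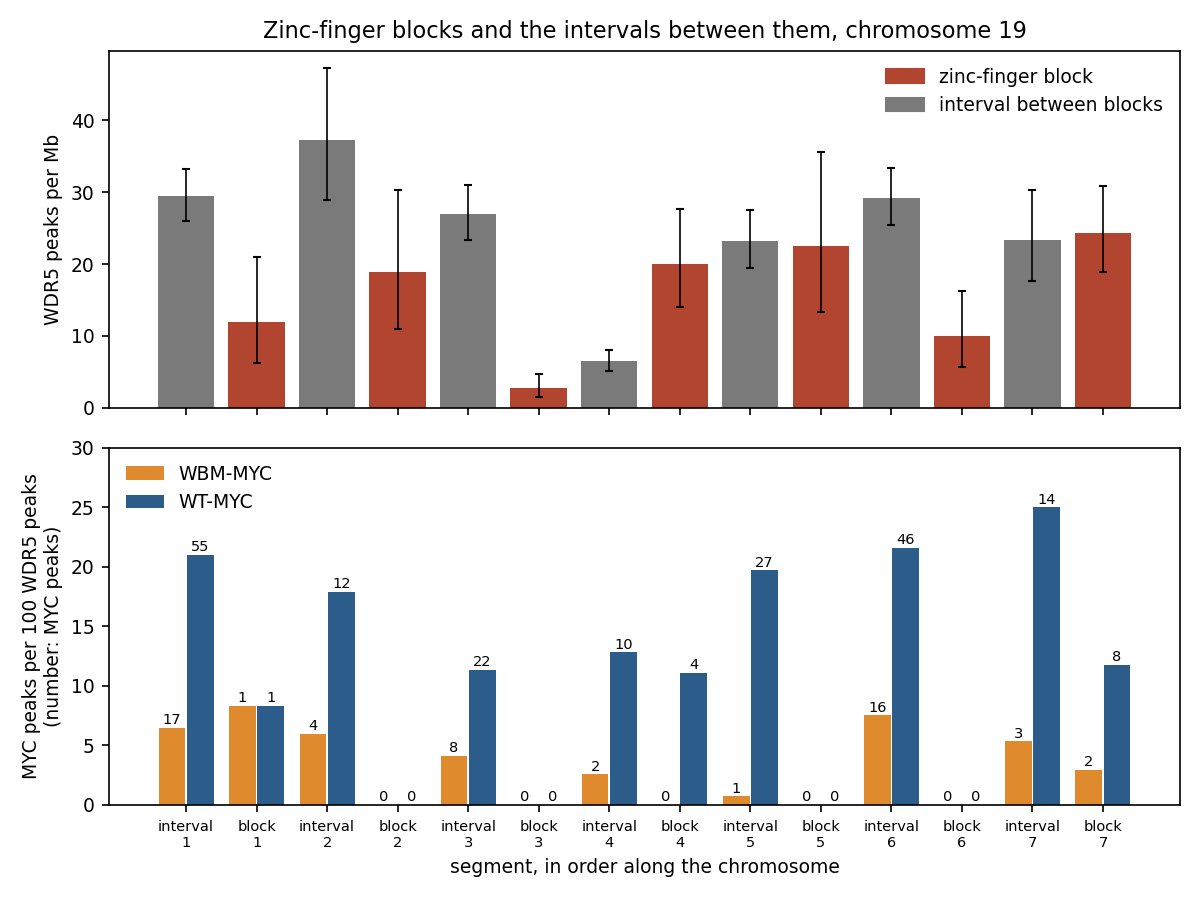
Density of WDR5 peaks (upper panel, peaks per Mb, bars with exact Poisson 95% intervals) and number of MYC peaks for every 100 WDR5 peaks (lower panel, WBM-MYC left and WT-MYC right in each pair, with the peak count above each bar) in the 7 blocks and the 7 intervals between them. Blocks 2, 3, 5 and 6 have no MYC peak, and the other blocks have 8.33 to 11.8 WT-MYC peaks for every 100 WDR5 peaks, against 11.3 to 25 in the intervals.

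The rest of the chromosome was not uniform either. WT-MYC peaks for every 100 WDR5 peaks ranged from 0 to 11.8 over the blocks, and from 11.3 between 12.6 and 19.8 Mb to 25 between 53.9 and 56.3 Mb over the intervals. Blocks 4 (11.1) and 7 (11.8) therefore had ratios close to those of the lowest intervals, from 12.6 to 19.8 Mb (11.3) and from 24.5 to 36.5 Mb (12.8). Leaving out block 7 took the ratio in the blocks to 4.46, and leaving out any other block gave values between 6.25 and 8.02. The odds ratio of WT-MYC against WDR5 without block 7 was 0.242 (Fisher's exact test, adjusted p = 0.00341).

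WBM-MYC counts did not follow WT-MYC counts evenly along the chromosome. The interval from 38.3 to 44.2 Mb held 1 WBM-MYC peak beside 27 WT-MYC peaks, while that from 45 to 52.3 Mb held 16 beside 46 and that up to 8.9 Mb held 17 beside 55. These counts were picked out after they were seen. The richest single megabase was the same for all lists, 1 to 2 Mb, with 6 WBM-MYC, 13 WT-MYC and 61 WDR5 peaks, and 50 to 51 Mb also held 6 WBM-MYC peaks.

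All 16 MYC peaks inside the blocks are named here, by position on chromosome 19 of hg19. The 3 WBM-MYC peaks all had the 456-bp width of that list. That at 9694878 to 9695333 (block 1) lay on a WDR5 peak whose centre was 42 bp away, and the nearest WT-MYC peak was 90.1 kb off. That at 59031027 to 59031482 (block 7) overlapped peaks of both other lists. Its centre was 45.5 bp from that of the WDR5 peak at 59031006 to 59031594 and 65 bp from that of the WT-MYC peak. It was the single site in the blocks with all 3 lists.

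The remaining WBM-MYC peak, at 57149303 to 57149758, coincided with the WT-MYC peak at 57149311 to 57149806, with centres 28 bp apart. No WDR5 peak lay within 42.5 kb of it. This WT-MYC peak stood at line 109 of the 2527 in its list and the WBM-MYC peak at line 134 of 690. It was the single WT-MYC peak in the blocks without WDR5.

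Block 4 held 4 WT-MYC peaks, starting at 36605631, 36705825, 36980054 and 37096027. Each lay on a WDR5 peak, with centres 2.5, 20, 36 and 82 bp apart, and the nearest WBM-MYC peak was at least 234.5 kb away. Beyond the last of them the block had WDR5 peaks alone, the widest 692 bp (37861638 to 37862329).

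Block 7 held WT-MYC peaks starting at 57149311, 57751776, 57791034, 57946491, 58891899, 58978367, 59030942 and 59070689. The last 4 lie in the final stretch of the chromosome with called peaks, which ended with a WDR5 peak at 59087424. Between 57988772 and 58874590, 27 consecutive WDR5 peaks had no MYC peak of either form. The peak at 57791034 stood earliest of all block members in the WT-MYC file, at line 50, and lay on 2 WDR5 peaks, with its centre 4 bp from that of the one with which it shared most bases. The remaining WT-MYC peak in the blocks, at 9785450 in block 1, lay on 2 WDR5 peaks and was centred 1.5 bp from the one with which it shared most bases.

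In blocks 2, 3, 5 and 6 the widest WDR5 peaks were 2, 2, 9 and 6 peaks tied at 624 bp. In blocks 1, 4 and 7, which have MYC peaks, the widest WDR5 peak spanned 709, 692 and 990 bp, and none of these 3 carried one. WDR5 peaks wider than 624 bp were few, 7 of 180 in the blocks (3.89%) and 41 of 1007 in the rest (4.07%). Differences in width between blocks were not tested, and the widest peak depends on how many peaks a block holds. Blocks 1, 4 and 7 held 12, 36 and 68 WDR5 peaks, and blocks 2, 3, 5 and 6 held 17, 13, 18 and 16. The 990-bp peak at 58897871 to 58898860 (line 2900 of the WDR5 file) lay in block 7 between the WT-MYC peaks at 58891899 and 58978367. The first sites outside the blocks with peaks of all 3 lists were WT-MYC peaks starting at 510511, 797499, 1383528, 1438160 and 1438359. The WDR5 peaks at the first 3 of these spanned 245, 694 and 444 bp. The last 2 overlap each other on one WDR5 peak of 1216 bp (1437986 to 1439201), which is line 3 of the WDR5 file, and on one WBM-MYC peak.

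The next comparison took the view from WDR5 sites and asked how often they carried MYC. In the blocks 16 of 180 WDR5 peaks had a WT-MYC peak (8.89%, 5.17 to 14.0%), against 166 of 1007 in the rest (16.5%, 14.2 to 18.9%). Over all chromosomes the share was 13.6%. The difference was -7.60 percentage points (-11.7 to -2.09), with an odds ratio of 0.495 (0.269 to 0.855; Fisher's exact test, p = 0.00941, adjusted p = 0.0517), which did not pass the threshold. Merging neighbours within 1 kb gave 12 of 149 regions in the blocks against 146 of 790 in the rest (odds ratio 0.387, Fisher's exact test, adjusted p = 0.00687). The odds ratio was below 1 too, but weaker, with the rest limited to 1 Mb beside the blocks (0.571, Fisher's exact test, adjusted p = 0.315). In the leading 50% of each list it was 0.530 (Fisher's exact test, adjusted p = 0.735). Against all other chromosomes, an alternative that was not planned, it was 0.629 (0.350 to 1.05; Fisher's exact test, adjusted p = 0.266). For WBM-MYC it was 2 of 180 WDR5 peaks in the blocks (1.11%, 0.135 to 3.96%) and 41 of 1007 in the rest (4.07%, 2.94 to 5.48%), with 3.40% over all chromosomes (odds ratio 0.265, 0.0308 to 1.04; Fisher's exact test, adjusted p = 0.112).

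Looked at from MYC, the blocks showed no detectable difference, with few peaks to show one. WT-MYC peaks lay on WDR5 in 12 of 13 cases in the blocks (92.3%, 64.0 to 99.8%) and 156 of 186 in the rest (83.9%, 77.8 to 88.8%), beside 82.9% over all chromosomes (difference 8.44 points, -17.6 to 17.1; Fisher's exact test, adjusted p = 0.900). WBM-MYC peaks did so in 2 of 3 cases in the blocks and 35 of 51 in the rest (75.5% over all chromosomes; Fisher's exact test, adjusted p = 1). A WBM-MYC peak was found at 2 of 13 WT-MYC peaks in the blocks and 44 of 186 in the rest (20.9% over all chromosomes; difference -8.27 points, -21.2 to 19.1; Fisher's exact test, adjusted p = 0.900). A WT-MYC peak was found at 2 of 3 WBM-MYC peaks in the blocks and 40 of 51 in the rest (72.0% over all chromosomes; Fisher's exact test, adjusted p = 0.844).

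**Figure D2:**
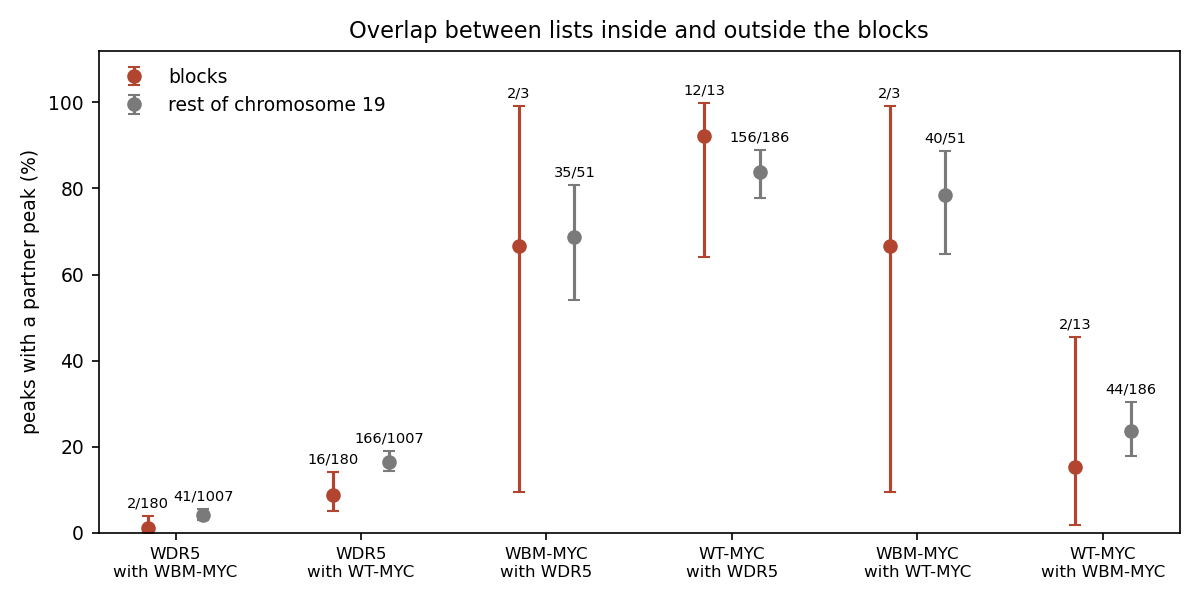
Share of peaks with at least 1 bp in common with a peak of another list (vertical axis, %), in the blocks (left of each pair) and in the rest of chromosome 19 (right), with exact 95% intervals and the counts above. WDR5 peaks had WT-MYC in 16 of 180 cases in the blocks and in 166 of 1007 in the rest, while the shares of MYC peaks in the blocks rest on 3 and 13 peaks and have wide intervals.

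WDR5 peaks of the blocks lay farther from WT-MYC, counting those that overlapped it as 0. The median distance from a WDR5 peak to the nearest WT-MYC peak on the chromosome was 240.0 kb in the blocks (interquartile range 42.3 to 441.0 kb) and 38.7 kb in the rest (7.25 to 111.4 kb). More than 100 kb separated 116 of the 180 block peaks (64.4%) and 277 of the 1007 others (27.5%) from WT-MYC. This is a description, since neighbouring peaks share their nearest MYC site. The distance also depends on the density of WT-MYC peaks, which was lower in the blocks, so it is no separate result.

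**Figure D3:**
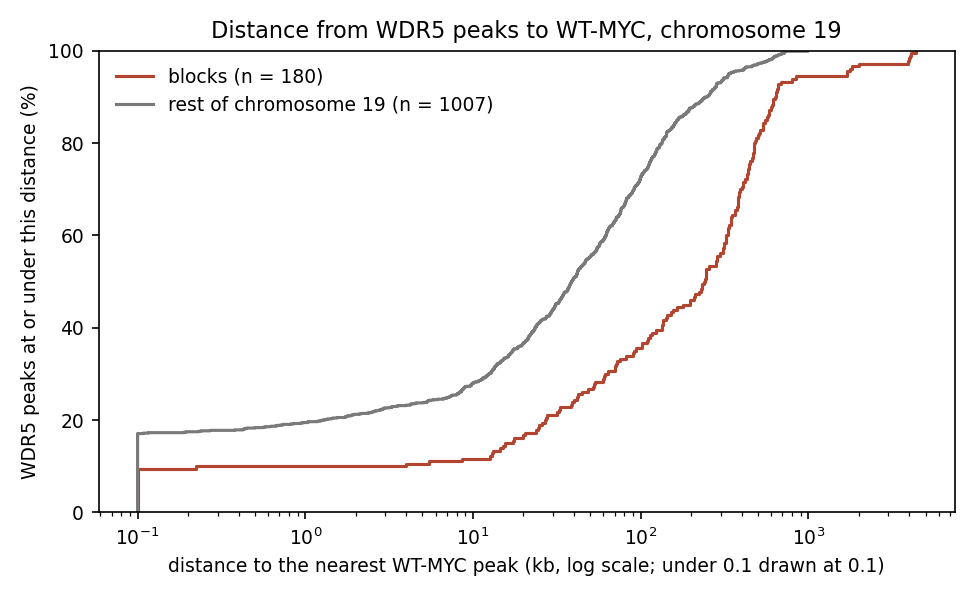
Cumulative share of WDR5 peaks (vertical axis, %) by distance to the nearest WT-MYC peak (horizontal axis, kb, log scale) for the 180 peaks in the blocks and the 1007 in the rest of chromosome 19. The line for the blocks lies to the right, with medians of 240.0 kb in the blocks and 38.7 kb in the rest.

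Long stretches without WT-MYC on WDR5 lay both on and outside the blocks. The widest gap between consecutive WT-MYC peaks ran from 19496347 to 28284285 (8.79 Mb), across block 3 and the centromere. It held 22 WDR5 peaks, 13 of them in block 3, and no WBM-MYC peak. WDR5 itself was uncalled over 4.01 Mb of it, from 24270155 to 28284562. The longest run of consecutive WDR5 peaks that did not overlap WT-MYC counted 39 peaks from 11616326 to 12912979, 17 of them in block 2. The next, 35 peaks from 35168435 to 36546016, had 3 in block 4, and 2 WT-MYC peaks lay between its WDR5 peaks. A run of 31 peaks from 51339102 to 54024532 had 16 in block 6, with 1 WT-MYC peak between its members. Runs of 30 peaks (6459603 to 8008711, with 1 WT-MYC peak between them) and 29 peaks (13105783 to 14517555, with none) lay wholly outside the blocks.

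One measure of width was tested, the share of WDR5 peaks at the commonest width, and it did not pass. Nearly all MYC peaks on the chromosome had the fixed width of their list: 53 of 54 WBM-MYC peaks spanned 456 bp and 198 of 199 WT-MYC peaks 496 bp, and the exception in each list lay outside the blocks. WDR5 peaks had a median width of 382.5 bp in the blocks (quartiles 297 and 624 bp, range 156 to 990 bp) and 417 bp in the rest (329 and 624 bp, range 156 to 1473 bp). The commonest width, 624 bp, was that of 41 of 180 WDR5 peaks in the blocks (22.8%, 16.9 to 29.6%) and 257 of 1007 in the rest (25.5%, 22.9 to 28.3%), beside 20.3% over all chromosomes (odds ratio 0.861, 0.576 to 1.27; Fisher's exact test, adjusted p = 0.838). WDR5 peaks with WT-MYC had nearly the same median width in the blocks (447.5 bp, 16 peaks) as in the rest (450 bp, 166 peaks), and those without it had 381 bp in the blocks (164 peaks) and 411 bp in the rest (841 peaks). Across the whole chromosome 4.04% of WDR5 peaks were wider than 624 bp (2.996 to 5.33%), against 8.81% on the other chromosomes (8.37 to 9.26%).

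The position of WDR5 peaks in the file was compared next. What sets the order of lines is not stated in the labels. The order was tied to width. In the leading 50% of the WDR5 file, 2 of 75 block peaks and 1 of 503 others had the 624-bp width. In the whole file they were 41 of 180 and 257 of 1007. Width and file position are therefore not separate results. Peaks of 624 bp were 9 of 18 in block 5, 6 of 16 in block 6 and 2 of 17 in block 2. In the blocks 75 of 180 WDR5 peaks were in the leading 50% of the file (41.7%, 34.4 to 49.2%), against 503 of 1007 in the rest (49.95%, 46.8 to 53.1%). The odds ratio of 0.716 (0.512 to 0.998) did not pass after adjustment (Fisher's exact test, p = 0.0431, adjusted p = 0.112). The share differed between blocks, with 2 of 18 in block 5 and 2 of 16 in block 6, but 12 of 17 in block 2. With single blocks left out the odds ratio ran from 0.631 without block 2 (Fisher's exact test, adjusted p = 0.0478) to 0.822 without block 5 (adjusted p = 0.497), and without block 6 it was 0.804 (adjusted p = 0.456). In the first decile of the file stood 4 of the 180 block peaks (2.22%, 0.609 to 5.59%) and 127 of the 1007 others (12.6%, 10.6 to 14.8%), a decile looked at after the data were seen.

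The MYC share fell along the file in the rest but not evenly in the blocks, so both are given together. In the first quartile of the WDR5 file, 3 of 27 block peaks had WT-MYC (11.1%, 2.35 to 29.2%), against 77 of 260 in the rest (29.6%, 24.1 to 35.6%). In the second quartile it was 8 of 48 in the blocks (16.7%) and 35 of 243 in the rest (14.4%), in the third 3 of 51 in the blocks (5.88%) and 32 of 233 in the rest (13.7%), and in the last 2 of 54 in the blocks (3.70%) and 22 of 271 in the rest (8.12%). The planned stratification split the WDR5 file at its midpoint. Its Mantel-Haenszel odds ratio of WT-MYC at WDR5 peaks was 0.524 (two-sided exact conditional test, p = 0.0198, adjusted p = 0.109). Without strata the odds ratio was 0.495. Within deciles of file order, a stratification chosen with the data known, it was 0.630 (exact conditional test, p = 0.106, adjusted p = 0.234). Within quartiles of width, likewise chosen, it was 0.495 (exact conditional test, adjusted p = 0.0575).

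**Figure D4:**
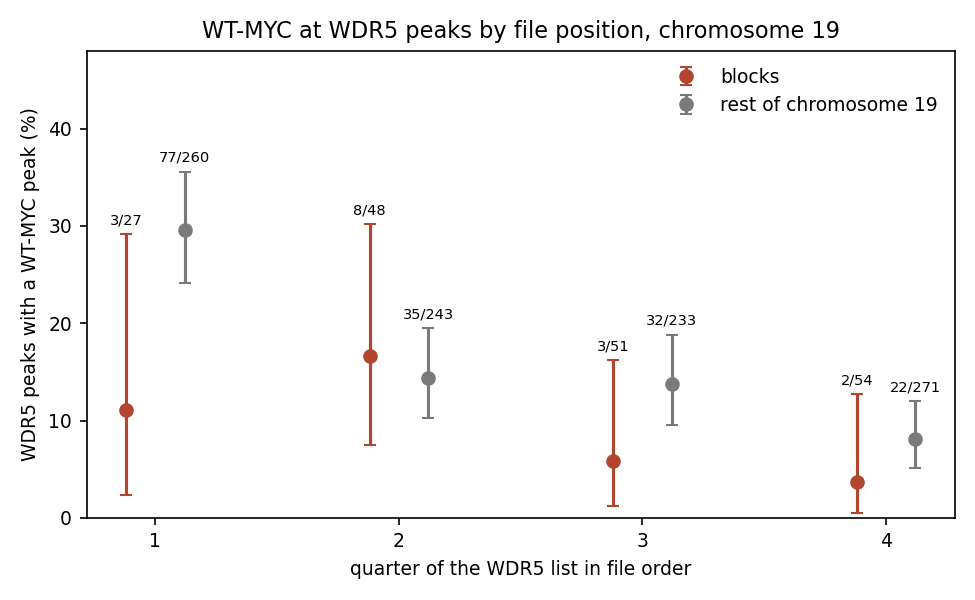
Share of WDR5 peaks with a WT-MYC peak (vertical axis, %, exact 95% intervals, counts above) by quartile of the WDR5 list in file order (horizontal axis), in the blocks (left of each pair) and in the rest of chromosome 19 (right). In the first quartile the shares were 11.1% in the blocks and 29.6% in the rest, and in the second 16.7% in the blocks and 14.4% in the rest.

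The spacing of WDR5 peaks is given as a description, with no test. The median gap to the nearest other WDR5 peak was 15813.5 bp in the blocks and 3675 bp in the rest, and 60 of 180 block peaks (33.3%) had another WDR5 peak within 1 kb, against 397 of 1007 in the rest (39.4%). Overlap with another WDR5 peak went the other way, with 39 of 180 in the blocks (21.7%) and 193 of 1007 in the rest (19.2%). Windows of 100 kb held at least 1 WDR5 peak in 76 of 136 cases in the blocks (55.9%) and 292 of 455 in the rest (64.2%). For WT-MYC these counts were 11 of 136 in the blocks (8.09%) and 128 of 455 in the rest (28.1%), and for WBM-MYC 3 of 136 in the blocks (2.21%) and 46 of 455 in the rest (10.1%). The rest includes the centromere, where no list had peaks.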

How the data were processed

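Peak positions in 3 lists, 1 each for WBM-MYC, WT-MYC and WDR5, were used as deposited by the authors, as chromosome, start and end on hg19 with no score. Per the submitters' processing notes, the tools included Bowtie 0.12.7 and CASAVA 1.8.2. Which program and thresholds called the peaks, with which controls, and whether replicates were pooled is not given in the sources used here, so depth is unknown and a site missing from a list may be bound below the threshold. Coordinates are printed 1-based.

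Python 3.11.15 with SciPy 1.17.1 counted overlaps and ran Fisher's exact tests. Counts on chromosome 19 were checked with bedtools 2.31.1 for WDR5 with WT-MYC, WT-MYC with WDR5 and WBM-MYC with WT-MYC, and were the same. The test code was tried on simulated data with planted odds ratios. The simulated units were independent, which neighbouring peaks are not, so the trial covers the code and not the p-values of these lists. Blocks, members and comparisons were chosen with earlier results of these data known. Named were all MYC peaks in the blocks, the widest WDR5 peak of each block, the first 5 sites outside with all lists, the longest stretches without WT-MYC and the richest megabase. Alternatives covered block edges, single blocks left out, the region compared, file order, merging and the overlap rule. No hg19 annotation or sequence was used, so no gene or sequence is given.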

Additional observations from a re-analysis of the deposited data

How the results depend on the processing

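Of 155 values recomputed under 18 alternatives, 136 kept their direction and side of the threshold, and WBM-MYC with WDR5 was exactly 1 with an overlap of 50% of the shorter peak. All 13 odds ratios of WT-MYC against WDR5 in the blocks stayed below 1 (0.242 to 0.496), and 3 lost the call: 0.445 (1 Mb beside the blocks), 0.443 (leading 50% of each list) and 0.496 (all other chromosomes). WDR5 with WT-MYC stayed below 1 in all 18 (0.287 to 0.630) and passed in 5: blocks widened by 0.1 Mb (0.445), without block 1 (0.461), without block 7 (0.287), neighbours merged (0.387) and centres within 500 bp (0.448). The leading 50% of the WDR5 file passed without block 2 (0.631). Reversed, none past the threshold, were WBM-MYC against WT-MYC without block 4 (1.21) and with the leading 50% (1.74); the 624-bp width without block 4 (1.08), with the leading 50% (13.6, 2 of 75 against 1 of 503 peaks) and against other chromosomes (1.19); WBM-MYC with WDR5 near the blocks (1.52) and with the leading 50% (1.24); WT-MYC with WBM-MYC (1.82) and WBM-MYC with WT-MYC (1.06) with the leading 50%. Another 3 odds ratios were infinite and gave no value, WBM-MYC with WT-MYC without block 1, and MYC of either form with WDR5 without block 7. The causes were not tested, beyond smaller counts. No paired analysis was possible because the lists, 1 each for WBM-MYC, WT-MYC and WDR5, hold no replicate values; for the same reason no replicate could be left out.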
